A study of Mus musculus with 4 samples.

Results

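Semaphorins, plexins and neuropilins were examined in the mouse trigeminal ganglion, which holds the sensory neurons of the face and their glia. The genes were taken by symbol (Sema3 to Sema7, Plxna to Plxnd, Nrp1 and Nrp2), which gave 31 of the 56035 gene rows: 20 semaphorins, 9 plexins and 2 neuropilins. RNA came from male C57BL/6 mice, 8 weeks old. One group carried Trpv1 K823R, an allele that exchanges a lysine of the heat- and capsaicin-gated channel TRPV1 for arginine. The protocol calls these animals a knock-in and the genotype label calls them transgenic, and neither says whether they carried 1 or 2 copies. The other group was wild-type (WT), described as littermates. Each group had 2 libraries from dissected ganglia, and the number of animals per library is not in the labels, so p-values measure only the spread between these libraries, which may be technical. The series is concerned with TRPV1 SUMOylation and itch, and the comparison asks how the ganglion's transcripts differ with the allele.

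Semaphorins are guidance proteins that tell a growing axon where not to go, and in some settings where to go. Plexins are their receptors, with an intracellular domain that acts on small GTPases of the Ras family and, through them, on adhesion and the cytoskeleton. Most secreted class 3 semaphorins do not bind plexins strongly on their own and use a neuropilin as the ligand-binding co-receptor, whereas the membrane-bound classes 4 to 7 bind plexins directly. In sensory ganglia the system is best known for repelling and sorting axons in the embryo, and it also acts between neurons, glia, vessels and immune cells in the adult.

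The semaphorins and plexins share a sequence feature that the symbols do not use, and it was not listed for the neuropilins. In the Pfam names given in the authors' deposited table, a Sema domain was listed for all 20 semaphorins and all 9 plexins and for 2 other genes, the receptor tyrosine kinases Met and Mst1r. The plexin cytoplasmic domain was listed for the 9 plexins and for 0 other genes. Thrombospondin repeats were listed for 2 semaphorins, the class 5 pair, and for 55 other genes. The CUB and factor V/VIII type C domains, which form the ligand-binding part of a neuropilin, were listed for both neuropilins. They are not particular to them, with 50 other genes listed for CUB and 25 for factor V/VIII type C.

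Values are TPM, a level corrected for transcript length and scaled to the same total in each library, which leaves read depth unknown. Between 21838 and 22119 genes were above 0 in a library, and the log2 levels correlated across genes at Pearson's r = 0.965 to 0.969 for every pair of libraries. Trpv1 itself was at 39.17 and 30.62 TPM (WT) against 40.92 and 35.01 TPM (K823R), and TPM does not show the codon. Neuronal markers were abundant in every library, with Prph at 1721.35 to 1911.52 TPM. WT replicate 1 stood apart for several marker lists. Its summed oligodendrocyte markers were at 555 TPM against 933 to 1116 TPM in the other 3 libraries. Mog was at 0 against 9.59 to 17.97 TPM. Its summed astrocyte markers were at 19.2 TPM against 81.6 to 98.5 TPM, fibroblast markers at 187 TPM against 316 to 417 TPM, and macrophage markers at 43.0 TPM against 65.9 to 91.5 TPM. Myelinating Schwann cell markers were at 11551 TPM against 14243 to 16968 TPM, and endothelial markers at 76.2 TPM against 91.4 to 99.4 TPM. Sensory neuron markers were highest in this library, at 11992 TPM against 10394 to 11633 TPM, as were the scarce T and B cell markers. Summed pituitary markers were at 1.69 and 4.28 TPM (WT) against 22.9 and 19.5 TPM (K823R). The part of these markers in the differences between groups was not tested, and fits that leave out WT replicate 1 or another library are given beside the leading genes. In whole ganglia, fewer cells of a type and less RNA per cell cannot be told apart.

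No member passed the test between the genotypes. Of the 31 genes, 30 had a mean of at least 1 TPM and were tested, each of them above 1 TPM in every library, and Sema3a was too low. The test was limma on log2(TPM + 1), Benjamini-Hochberg adjusted over 15390 genes, and it called 0 of the 30 members at an adjusted p below 0.05, against a background of 0.00650% of all genes. The lowest adjusted p of a member was 0.918. An unadjusted p below 0.05 was found for 4 members (13.3%), Sema4d, Sema6c, Sema4g and Nrp2, against 4.76% of all genes. All 4 were on the higher side, against 2.57% of all genes, and 0 on the lower side, against 2.19%. The count of all genes at this threshold was 732 in the main fit. With rescaled TPM the count of members was 3, against 824 of all genes. It was also 3 with no variance trend, against 739, and with the replicate block, against 916. Fits without 1 library leave a group of 1, so no p-value or count passing is given for them, only differences and their signs. An exact permutation test of 1 gene with 2 libraries against 2 cannot give a p under 0.333.

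The members' differences lay mostly above 0. The log2 difference, K823R minus WT, was above 0 for 23 of 30 members (76.7%), against 57.4% of all genes, and its median was 0.11 against 0.026 for all genes tested. WT and K823R libraries did not overlap for 12 members (40.0%), close to the 34.0% of all genes. Of these, 11 (36.7% of members) lay on the higher side, against 19.4%, and 1 (3.33%), Sema3c, on the lower side, against 14.6%. The counts describe a list and carry no test. The median and the count above 0 leaned on WT replicate 2, which was the lowest library for 16 of the 30 members and for 36.3% of all tested genes. Without it the median was 0.026, against -0.0026 for all genes, and 17 members were above 0, against 49.4% of all genes. Without WT replicate 1 the median was 0.16 and 25 members were above 0, against 60.0% of all genes. With the TPM rescaled by the median of ratios 18 members were above 0, against 51.6% of all genes.

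**Figure D1:**
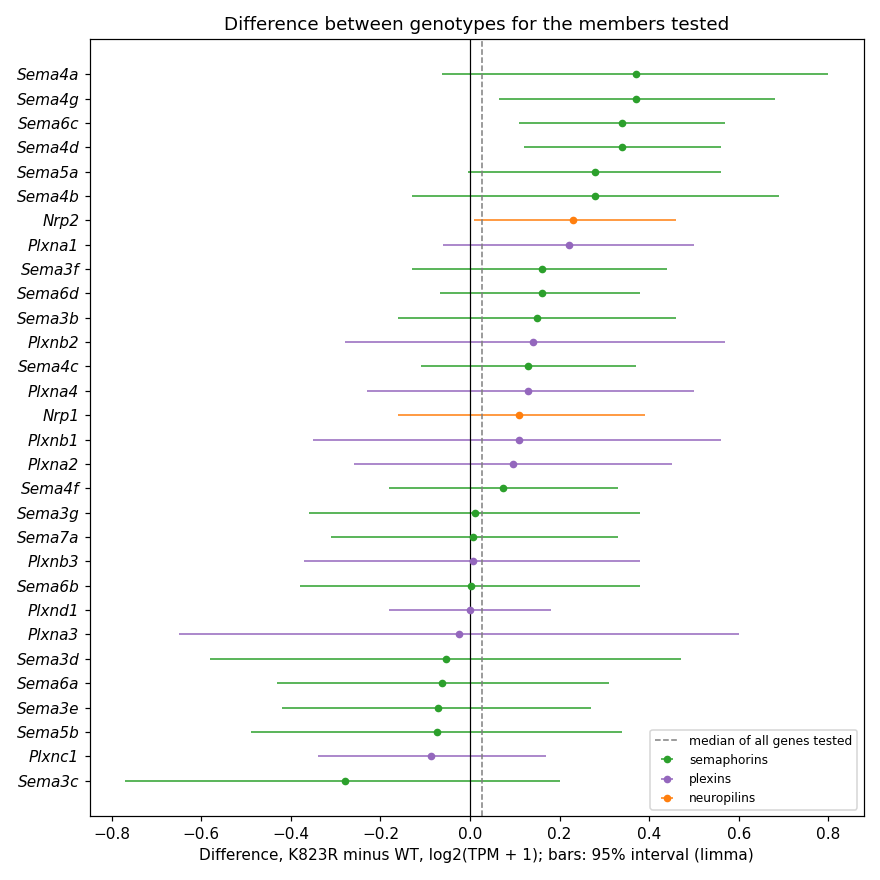
Difference between genotypes for the 30 members tested, as log2(TPM + 1) of K823R minus that of WT, with points as estimates, bars as 95% intervals from limma and the dashed line at the median of all genes tested. Intervals lie above 0 for Sema4g, Sema6c, Sema4d and Nrp2, without adjustment for the number of genes tested, and include 0 for the other 26 members.

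Among the ligands, the secreted class 3 semaphorins spanned the whole range of levels. Sema3b, which signals through neuropilins, was the most abundant member and stood at 160.34 and 194.45 TPM (WT) against 188.09 and 204.39 TPM (K823R). The groups overlapped, and the difference of 0.15 was 0.012 to 0.29 with 1 library left out, lowest without WT replicate 1. Sema3b alone made up 30.9% to 37.5% of the summed semaphorin TPM of a library. Sema3a, the classical repellent of nociceptive axons in the embryo, was at 0.02 and 0.10 TPM (WT) against 0.10 and 0.04 TPM (K823R). It was therefore the scarcest member in each of the 4 libraries, and no fold is given. The other class 3 genes lay between these extremes. Sema3g, a ligand known from the vascular endothelium, was at 23.81 to 29.86 TPM over the 4 libraries, and Sema3d was at 1.75 to 1.97 TPM.

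Within class 3, Sema3c and Sema3f were the genes whose groups did not overlap, and they lay on opposite sides. Sema3c, a ligand known from the development of the cardiac outflow tract, stood at 4.58 and 6.31 TPM (WT) against 4.34 and 4.15 TPM (K823R). The difference was -0.28 on the log2 scale (standard error, SE, 0.18), with a 95% interval of -0.77 to 0.20 (limma, adjusted p = 0.918). The gap rested on WT replicate 2, without which the difference was -0.090. Sema3f, which prefers neuropilin-2 over neuropilin-1, stood at 16.53 and 14.86 TPM (WT) against 16.78 and 18.46 TPM (K823R). Its difference was 0.16 with SE 0.11 (limma, adjusted p = 0.918), and the lowest K823R library was barely above the highest WT library. The difference was 0.086 without WT replicate 2 and 0.093 without K823R replicate 2. Sema3e, which can bind plexin-D1 without a neuropilin, was at 6.56 and 5.75 TPM (WT) against 5.74 and 5.86 TPM (K823R), so that the groups overlapped. The 6 class 3 genes tested had a median difference of -0.021.

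**Figure D2:**
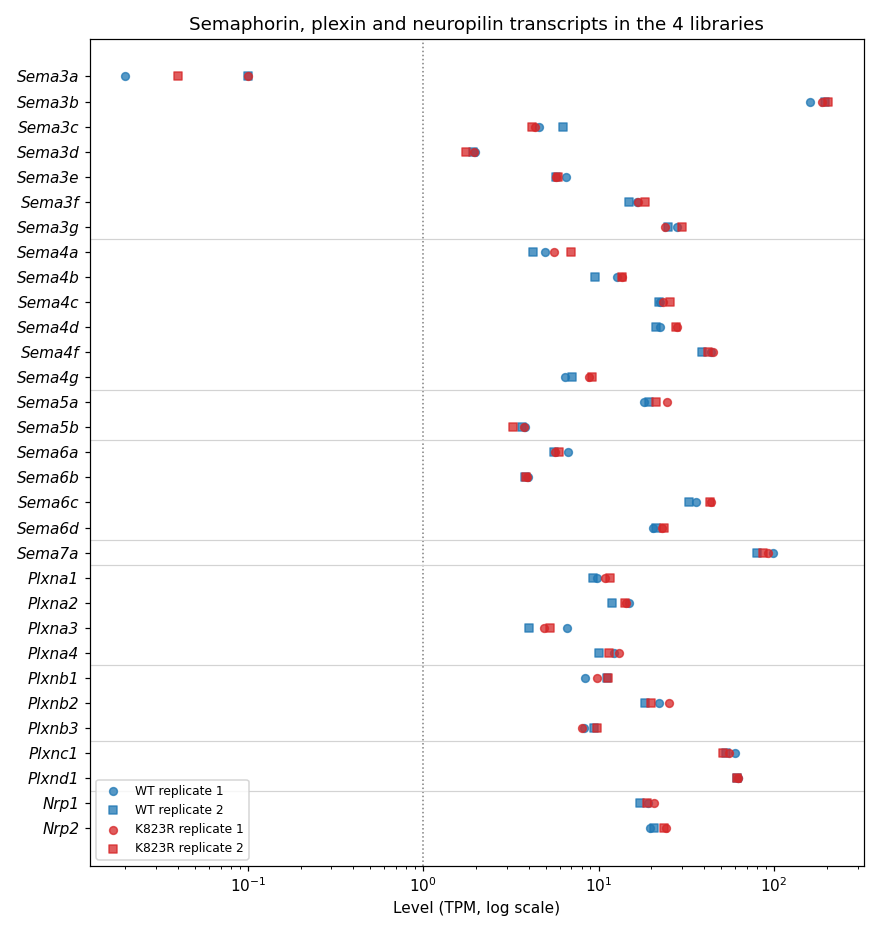
Level of each of the 31 members in the 4 libraries, in TPM on a log axis, with circles for replicate 1, squares for replicate 2, blue for WT, red for K823R and the dotted line at 1 TPM, the minimum mean for testing. Horizontal lines part the classes, and Sema3a lies alone to the left while Sema3b, at 160.34 to 204.39 TPM, is the highest.

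The class 4 semaphorins, transmembrane ligands that also act in the immune system, all had differences above 0, except that Sema4f lost this sign without WT replicate 2. For 5 of the 6 genes the K823R libraries were both above the WT libraries, as they were for 19.4% of all tested genes. The median difference of the class was 0.31, against 0.026 for all genes, and it was 0.20 without WT replicate 2. Sema4d, known as CD100 and as a ligand of plexin-B1 made by lymphocytes and oligodendrocytes, stood at 22.34 and 21.16 TPM (WT) against 28.14 and 27.55 TPM (K823R). The gap between the groups was wider than the spread within either. The log2 difference was 0.34 with SE 0.085 and a 95% interval of 0.12 to 0.56 (limma, unadjusted p = 0.0112, adjusted p = 0.918). Over the 4 fits that left out 1 library the difference of Sema4d was 0.31 to 0.38, highest without WT replicate 1. The part of oligodendrocyte content in this difference was not tested. In GRCm38 the gene lies on chromosome 13 from 51685529 to 51793747 on the minus strand.

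Sema4g, a ligand of plexin-B2 that lies on chromosome 19 from 44989101 to 45003397 on the plus strand, was scarcer. It stood at 6.42 and 7.08 TPM (WT) against 8.81 and 9.21 TPM (K823R), with no overlap. The difference was 0.37 with SE 0.12 and a 95% interval of 0.064 to 0.68 (limma, unadjusted p = 0.0272, adjusted p = 0.918), and it was 0.31 to 0.43 with 1 library left out. Sema4a, known for its part in the priming of T cells and in photoreceptors, stood at 4.93 and 4.25 TPM (WT) against 5.55 and 6.93 TPM (K823R). Its libraries scattered more, with a difference of 0.37, SE 0.16 and an interval of -0.063 to 0.80, and without K823R replicate 2 the difference was 0.23.

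The other class 4 genes showed smaller or less even differences. Sema4b stood at 12.75 and 9.55 TPM (WT) against 13.69 and 13.54 TPM (K823R). Its difference of 0.28 was 0.088 without WT replicate 2, which was the low library. Sema4c, another ligand of plexin-B2, stood at 22.42 and 22.13 TPM (WT) against 23.44 and 25.71 TPM (K823R), with a difference of 0.13 and SE 0.091, and 0.070 without K823R replicate 2. It shares 334 of its 4593 exon bases with D430040D24Rik on the opposite strand, which averaged 10.7 TPM (WT) and 11.8 TPM (K823R), and reads of the 2 genes cannot be told apart there without strand. Sema4f, the most abundant of the class, was at 43.95 and 39.08 TPM (WT) against 45.23 and 42.19 TPM (K823R). Its groups overlapped, and its difference of 0.074 turned to -0.0086 without WT replicate 2. Summed over the class, WT libraries held 113 and 103 TPM and K823R libraries 125 TPM each.

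**Figure D3:**
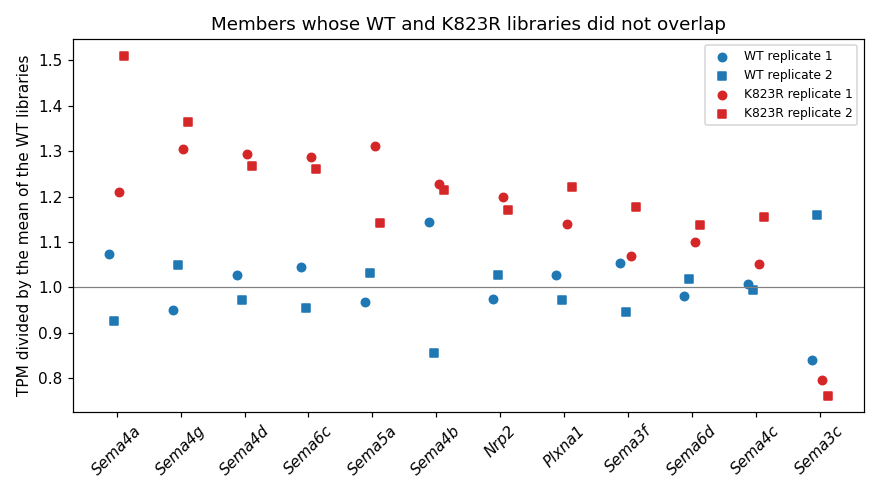
The 12 members whose WT and K823R libraries did not overlap, each library's TPM divided by the mean of the WT libraries, with blue for WT, red for K823R, circles for replicate 1 and squares for replicate 2. Sema4d, Sema6d and Nrp2 have both libraries of each group closest together, whereas Sema4a, Sema4b and Sema3c are spread most within a group. The vertical axis does not start at 0.

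The class 5 and class 6 ligands held 1 further gene with an unadjusted p below 0.05. Sema6c, a transmembrane semaphorin encoded on chromosome 3 from 95160457 to 95174024 on the plus strand, stood at 35.75 and 32.62 TPM (WT) against 43.98 and 43.07 TPM (K823R). All K823R values were above all WT values, and the log2 difference was 0.34 with SE 0.086 and a 95% interval of 0.11 to 0.57 (limma, unadjusted p = 0.0123, adjusted p = 0.918). It was 0.28 to 0.41 with 1 library left out, the higher value being that without WT replicate 1. Sema6d, a ligand of plexin-A1, stood at 20.43 and 21.24 TPM (WT) against 22.94 and 23.69 TPM (K823R), with a difference of 0.16 and SE 0.085 (limma, adjusted p = 0.918). The remaining class 6 genes were low and overlapped between the groups. Sema6a, a ligand of plexins A2 and A4, was at 5.59 to 6.66 TPM over the 4 libraries, and Sema6b was at 3.81 to 3.97 TPM.

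The class 5 genes, whose thrombospondin repeats set them apart, differed from each other in level. Sema5a, a ligand of plexin-B3, stood at 18.08 and 19.30 TPM (WT) against 24.49 and 21.34 TPM (K823R). The groups did not overlap, and the difference was 0.28 with SE 0.11 and an interval of -0.0052 to 0.56 (limma, unadjusted p = 0.0529, adjusted p = 0.918). It was 0.18 without K823R replicate 1. Sema5b was at 3.80 and 3.66 TPM (WT) against 3.75 and 3.25 TPM (K823R), with overlap.

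Sema7a, the lipid-anchored class 7 ligand that binds integrins and plexin-C1, was the next most abundant ligand after Sema3b. It stood at 98.76 and 80.27 TPM (WT) against 92.75 and 86.34 TPM (K823R). Both extremes were WT libraries, and the difference of 0.0071 had an interval of -0.31 to 0.33. Its sign turned without WT replicate 2 (-0.14), without K823R replicate 1 (-0.044) and with rescaled TPM (-0.016).

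**Figure D4:**
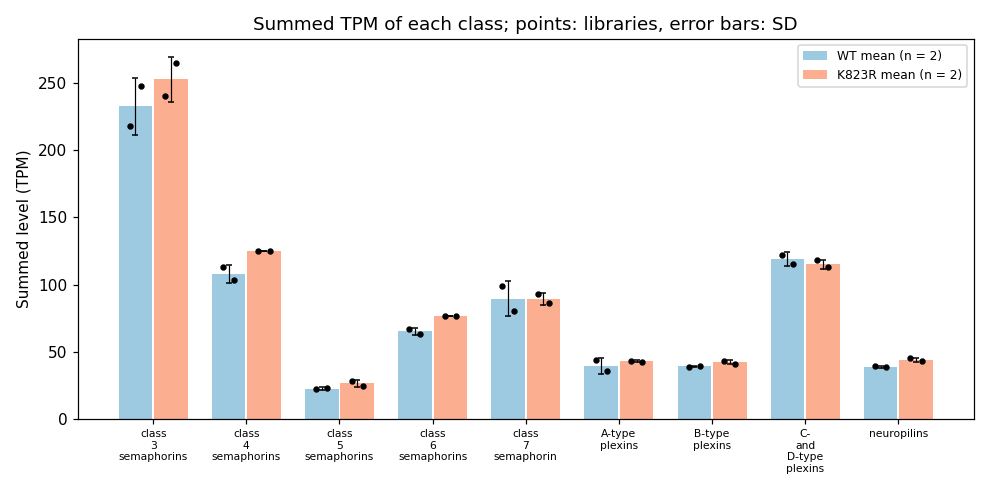
Summed TPM of the members of each class, with bars as the mean of 2 libraries, error bars as the SD and points as libraries. The class 4 sums are 113 and 103 TPM in WT and 125 TPM in each K823R library. The class 6 sums are 66.8 and 63.3 TPM (WT) against 76.5 and 76.6 TPM (K823R). Sema6c averages 34.2 TPM (WT) and 43.5 TPM (K823R) of these, and the median log2 difference of class 6 is 0.078. The class 5, B-type and neuropilin sums do not overlap either, and the class 3, class 7, A-type and C- and D-type sums overlap.

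Among the receptors, plexin-D1 and plexin-C1 were the most abundant and had differences close to 0 or below it. Plxnd1, known for the patterning of vessels and as the receptor of Sema3e, stood at 62.03 and 61.88 TPM (WT) against 62.44 and 61.53 TPM (K823R). The 4 values lay within 1 TPM of each other. Its difference was 0.00065 with SE 0.070 and a 95% interval of -0.18 to 0.18, which is the smallest SE among the members, and its sign turned with rescaled TPM (-0.022), without WT replicate 2 (-0.0011) and without K823R replicate 1 (-0.0098). Plxnc1, the receptor of Sema7a, stood at 60.37 and 53.13 TPM (WT) against 55.22 and 51.38 TPM (K823R). The groups overlapped, and its difference of -0.087 was 0.0036 without WT replicate 1. Sema7a was 1.64 and 1.51 times as high as Plxnc1 in the WT libraries and 1.68 times in both K823R libraries, and Sema3e was 0.0919 to 0.106 times as high as Plxnd1.

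The A-type plexins, which signal for neuropilin-bound class 3 ligands and for class 6 ligands, were found at 4.01 to 14.90 TPM. Plxna1 was the plexin whose groups did not overlap, at 9.76 and 9.24 TPM (WT) against 10.82 and 11.61 TPM (K823R). Its difference was 0.22 with SE 0.11 and an interval of -0.060 to 0.50 (limma, adjusted p = 0.918), and it was 0.17 to 0.26 with 1 library left out. The other A-type genes overlapped between the groups. Plxna2 was at 14.90 and 11.92 TPM (WT) against 14.41 and 14.22 TPM (K823R), and Plxna4, a receptor for Sema3a with neuropilin-1, was at 12.20 and 10.10 TPM (WT) against 13.12 and 11.45 TPM (K823R). For Plxna4 the difference of 0.13 was 0.0064 with WT replicate 2 left out and 0.26 with WT replicate 1 left out. Plxna3 had the widest spread of them, at 6.63 and 4.01 TPM (WT) against 4.89 and 5.27 TPM (K823R), and its difference ran from -0.33 without WT replicate 2 to 0.28 without WT replicate 1.

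The B-type plexins, which include receptors of class 4 ligands, overlapped between the groups for all 3 genes. Plxnb1, the receptor of Sema4d, stood at 8.38 and 11.25 TPM (WT) against 9.77 and 11.38 TPM (K823R). Plxnb2 was more abundant, at 22.18 and 18.33 TPM (WT) against 25.21 and 19.88 TPM (K823R). Within both groups, Plxnb2 was higher and Plxnb1 lower in the library numbered 1. Plxnb3, known from oligodendrocytes, stood at 8.27 and 9.45 TPM (WT) against 8.07 and 9.78 TPM (K823R). No B-type plexin had a 95% interval that left out 0, and the intervals ran from -0.37 at their lowest to 0.57 at their highest.

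The co-receptors were found at similar levels, and Nrp2 was the one whose groups did not overlap. Nrp2 (chromosome 1 from 62703285 to 62818695 on the plus strand) stood at 19.74 and 20.81 TPM (WT) against 24.33 and 23.71 TPM (K823R). The difference was 0.23 with SE 0.086 and a 95% interval of 0.0081 to 0.46 (limma, unadjusted p = 0.0449, adjusted p = 0.918). It was 0.20 to 0.27 with 1 library left out. Nrp1, which also serves as a co-receptor for vascular endothelial growth factor, stood at 19.25 and 17.31 TPM (WT) against 20.73 and 18.92 TPM (K823R). Its groups overlapped, and its difference was 0.11 with an interval of -0.16 to 0.39. It was 0.039 when WT replicate 2 was left out, 0.049 when K823R replicate 1 was, and 0.18 when WT replicate 1 was. The ratio of Nrp2 to Nrp1 was 1.03 and 1.20 in WT and 1.17 and 1.25 in K823R, so that the ratios overlapped, and the difference between the neuropilins was not tested.

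Promoters were looked up in RefSeq sequences of the same build, GRCm38.p6, which held 37 promoters of 26 members. In the 250 bases before the start, the letters GGGCGG or their reverse complement CCGCCC were found in 27 of the 37 promoters (73.0%), against 32.7% of all 32851 promoters in the table. The letters TATAAA or TTTATA were found in 0 of them, against 12.4% of all. The median GC content of these bases was 64.0% against 52.4%. A match in letters is a description and says nothing of binding. A pair of stretches is shown, for Sema6c and Nrp2, whose exon-free bases lie nearest to the start among the 4 genes with an unadjusted p below 0.05. Both are written 5′ to 3′ on the gene's strand with GGGCGG or CCGCCC in capitals. The Sema6c stretch is chr3:95160300-95160419 on the plus strand and ends at the base before the first start listed. That start lies before the GENCODE start of Sema6c at 95160457. Bases 21 to 50 after it matched no GENCODE transcript of the gene, whereas such a match was found for 30 of the 37 promoters. The Nrp2 stretch is chr1:62703165-62703284 on the plus strand and is followed by 32 more bases before the start.
Sema6c: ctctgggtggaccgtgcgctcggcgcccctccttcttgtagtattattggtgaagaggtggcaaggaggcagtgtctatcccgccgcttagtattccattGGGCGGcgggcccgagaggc
Nrp2: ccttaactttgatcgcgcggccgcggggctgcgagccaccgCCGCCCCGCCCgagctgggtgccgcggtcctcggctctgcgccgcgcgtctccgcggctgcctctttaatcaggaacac
The Sema6c stretch holds 1 such box and the Nrp2 stretch 2, which share 1 base, and the Nrp2 bases are the richer in CG pairs, with an observed over expected ratio of 0.985 against 0.724 in the whole 250 bases. The same 250 bases of the first start listed for Sema4d held 0 boxes with a ratio of 0.0603, and those of Sema4g held 3 with a ratio of 0.73. Of these 250 bases, the last 119 for Sema4d and the last 243 for Sema4g lie in exons of the gene. For Nrp2 the last 32 do.

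Other genes of the pathway, a list of 55 partners such as adhesion co-receptors, collapsin response mediators, small GTPases and their regulators, did not pass the test either. Of the 53 that were tested, 0 passed in either direction, 33 had a difference above 0 and 20 below, and the median was 0.030. The share above 0 was 62.3%, against 57.4% of all genes, whose median was 0.026. An unadjusted p below 0.05 was found for 3 of them, 2 higher and 1 lower, which is 5.66%, against 4.76% of all genes. Rhod, a small GTPase, averaged 1.23 ± 0.0141 TPM (WT) and 2.50 ± 0.141 TPM (K823R; SD, n = 2 each), with a log2 difference of 0.65 on a scale that compresses low genes. Dpysl4, a collapsin response mediator, had means of 8.46 and 10.9 TPM, and Vegfa, the neuropilin-binding growth factor, of 24.2 and 28.8 TPM. On the lower side, Rnd1, a GTPase that binds plexins, stood at means of 4.11 and 2.77 TPM with a difference of -0.44, SE 0.16. Fyn, a kinase downstream of Sema3a, had means of 66.2 and 59.8 TPM, and Pak1, a kinase that acts on the cytoskeleton, of 88.4 and 80.3 TPM. The limma adjusted p was 0.918 for each of these 6 genes.

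The precision of the members was that of the table at large. Their median SE was 0.13, equal to the median over all genes tested, and the median half-width of their 95% intervals was 0.33 on the log2 scale. No other gene matched a member at 95% identity over 90% of the member's longest transcript. In the other direction, 2 members held a transcript of another gene at 95% identity over 90% of that transcript. Shorter matches included 340 bases of Sema3a with Gm43431 and 55 bases of Sema4b with Gm45833. Beside Sema4c, exon bases shared with another gene were found for 6 members, with the other gene at a mean of at most 0.325 TPM in either group.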

How the data were processed

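Per the labels' protocols, mRNA was copied with random primers and read from both ends. Per the submitters' processing notes, the tools were HISAT2, RSEM, edgeR and fastp 0.19.5 and the build GRCm38.p6, with no roles given. No source used here names a strand setting or annotation release. The authors deposited 1 table of TPM for 4 libraries, with 2 columns of group means that were not used, and the deposited gene length column was used only as a label. TPM keeps no read total, so no counting interval or floor is given.

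Libraries were grouped by title. The 15390 genes averaging 1 TPM or more were tested with limma 3.58.1 in R 4.3.3 on log2(TPM + 1), with a variance trend, 2 residual and 2.67 prior degrees of freedom, two-sided, Benjamini-Hochberg adjusted over all genes, at a threshold of 0.05. This scale understates changes of low genes. The fit was also run on simulated data, with shifts far larger than any member's difference, so that run says nothing of power at the sizes reported. Members and lists were chosen with earlier results of these data known. All members are named, and of the partners the 3 with the smallest p in each direction. Alternatives were a pseudocount of 0.1 TPM, no filter, rescaled TPM, no variance trend, a replicate block and leaving out each library. Coordinates come from GENCODE M21 (GRCm38) and promoters from RefSeq (GRCm38.p6). Copies were searched with blastn 2.17.0, and plots used matplotlib 3.10.9.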

Additional observations from a re-analysis of the deposited data

How the results depend on the processing

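The count of members passing was 0 under every alternative that kept all 4 libraries, as was that of partner genes. The limma adjusted p of the members was at least 0.748 in these fits. The count over all genes was 1 and became 0 with no filter, without a variance trend and with the replicate block, and the cause was not tested. The members' median of 0.11 was 0.026 to 0.16 with 1 library left out, lowest without WT replicate 2. With the replicate block the members' median stayed at 0.11. The replicate numbers are not stated to pair the samples, and the deviations of same-numbered libraries correlated at 0.050 across genes. A group left with 1 library is assumed to vary like the other. The sign was kept with each library left out for 16 of 30 members and changed for 14. It could not change for the 12 members whose groups did not overlap, and the share over all genes was not computed. The ranges were -0.054 to 0.25 for Plxna2, -0.33 to 0.28 for Plxna3, -0.085 to 0.30 for Plxnb1, -0.020 to 0.31 for Plxnb2, -0.12 to 0.13 for Plxnb3, -0.18 to 0.0036 for Plxnc1 and -0.0098 to 0.011 for Plxnd1. They were -0.15 to 0.011 for Sema3e, -0.15 to 0.17 for Sema3g, -0.0086 to 0.16 for Sema4f, -0.15 to 0.0062 for Sema5b, -0.17 to 0.046 for Sema6a, -0.022 to 0.025 for Sema6b and -0.14 to 0.16 for Sema7a. Rescaled TPM turned 5 signs, to -0.014 for Plxnb3, -0.022 for Plxnd1, -0.010 for Sema3g, -0.017 for Sema6b and -0.016 for Sema7a. Read depth is unknown, so counting error cannot be separated from other spread.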
